A study of Mus musculus with 12 samples.

Results

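The day 0 cells of 5 mouse lines, SCC31, SCC32, SCC35, SCC37 and SCC40, were described and compared at the level of RNA, in a series on why some melanomas are rejected by their host. In the hashtag table of the authors, the rows of SCC31 and of SCC40 carry the word rejected and those of the other 3 lines the word non-rejected, and day 0 rows have no mouse or cage, unlike those of later days. A day 0 cell was a barcode of a line's own library with at least 300 detected genes, at most 15% mitochondrial counts, and a leading hashtag (an antibody that carries a sample barcode) with 10 or more counts that was 2 or more times the next. These rules gave 7227 day 0 cells of 57643 assigned cells, in 10 of 53 hashed samples. Each line had 2 day 0 samples, replicates 1 and 2, which shared the library of that line with its tumours, so line and library cannot be told apart. The protocol text describes dissociation of tumours, hashtag staining, a live cell sort with propidium iodide and 5' single-cell libraries. The labels do not say from what event day 0 was counted, whether day 0 cells came from culture, or whether the replicates were separate cultures. P-values therefore measure only the spread between these samples, which may be technical. The genotype of the lines, the mouse strain and any treatment are not stated in those sources.

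Melanocytes descend from the neural crest, and melanoma cells often lose pigment genes and take up mesenchymal features. Interferon makes a cell switch on a shared program of antiviral genes and of genes that load peptides onto MHC class I, the surface complex that CD8 T cells read. Tumour cells also secrete chemokines that draw immune cells, and build matrix that can hold them back. The comparison of the day 0 cells asks which of these programs differed between lines.

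Cell numbers per sample ran from 224 (SCC35 replicate 2) to 1339 (SCC32 replicate 2), summed gene UMIs (unique molecules) from 1473567 to 13752007, and median UMIs per cell from 2302 in SCC31 to 10660 in SCC40. Replicates of a line had rank correlations of 0.962 to 0.996 across genes, and every pair differed beyond sampling noise. Libraries shared 41 to 498 cell barcodes a pair, at most 3.47% of the smaller library. SCC31 stood apart in RNA make-up. Its samples held 21.4% and 21.2% of UMIs in Gm42418, a locus that overlaps ribosomal RNA, against 1.39% to 4.20% in the other lines, and 5.41% and 5.11% in ribosomal protein genes, against 11.2% to 16%. With Gm42418 and 3 similar genes left out of the fit, the calls of SCC31 changed little (22 of 24 interferon-stimulated genes lower both ways). That fit uses a scaling (TMM) that already sets aside genes of extreme level or change. The check therefore cannot tell how the RNA make-up of SCC31 bears on its results. CPM values in this report keep these genes in the totals.

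SCC35 replicate 1 stood apart in its hashtags. In 429 of its 746 cells (57.5%) the leading hashtag was only 2 to 4 times the next, against 30.4% in SCC35 replicate 2 and at most 16.6% in the other lines. Those 429 cells had 8.84 CPM (the counts of a gene scaled to a common library total) of Tap1, the peptide transporter of MHC class I, against 52.0 CPM in the 236 cells of that sample with a ratio of at least 8. They had 310 against 1518 CPM of Bst2 and 126 against 982 CPM of Isg15, both interferon-stimulated, and 12820 against 6027 CPM of Vim and 461 against 126 CPM of Col6a3, both mesenchymal. The cells of low and high ratio in this sample thus held different RNA, and whether the low-ratio cells carry the right label was not tested. In SCC32, SCC37 and SCC40 too, cells of ratio 2 to 4 had more Col6a3 and less Bst2 than those of ratio 8 or more. Col6a3 had 28.3 against 6.81 CPM in SCC32 replicate 1 and 27.6 against 0.60 CPM in SCC40 replicate 1. In SCC31, Bst2 ran the other way (646 against 407 CPM in replicate 1). Results for SCC35 are given with the whole sample. List counts that changed and folds of named genes are also given with a ratio of 8 in that sample, an alternative chosen after seeing the data.

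**Figure D1:**
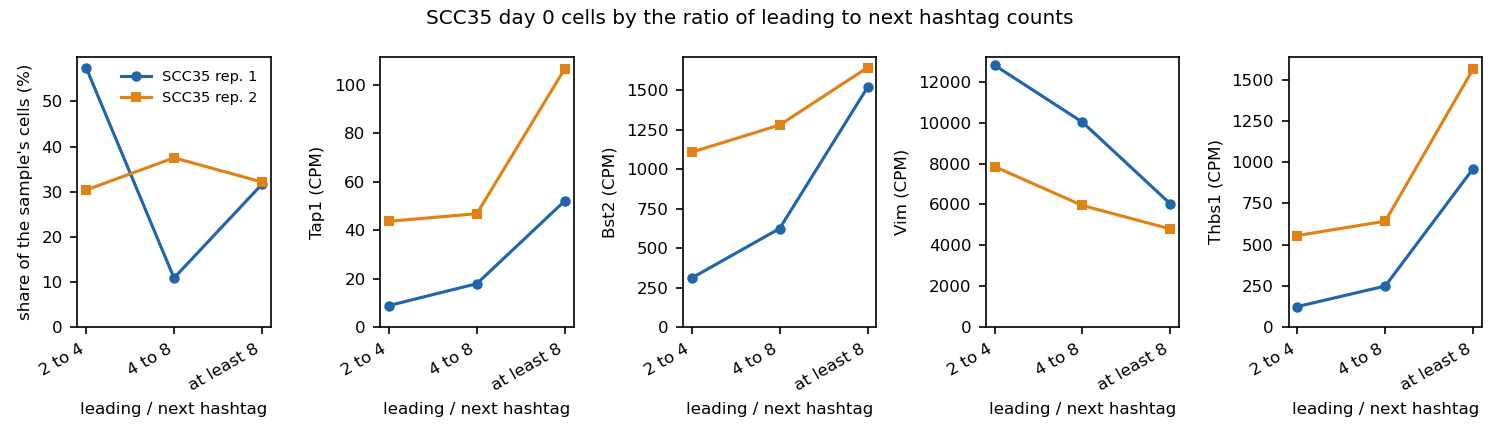
Share of cells (%, first panel) and CPM of Tap1, Bst2, Vim and Thbs1 (a matrix glycoprotein) in SCC35 cells by the ratio of leading to next hashtag counts (2 to 4, 4 to 8, at least 8), with circles for replicate 1 and squares for replicate 2, each point a sum over cells with no error. Replicate 1 has 57.5% of its cells at ratios of 2 to 4, where Tap1, Bst2 and Thbs1 are lowest and Vim highest, and in replicate 2 the 4 genes run the same way.

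Pigment enzymes and most other melanocyte lineage genes were low or absent in all 5 lines, and a few members of the list were well expressed. Of 20 melanocyte lineage genes, 12 stayed under 1 CPM in every sample, and 7 of these had no count at all, among them Tyr and Tyrp1, the pigment enzymes, and Ednrb, a receptor of melanoblasts. Sox10, a neural crest regulator of melanocytes, reached at most 1.36 CPM, Pmel 0.68, Mlana 0.42 and Dct 0.07. The 4 genes that passed the filter on low counts had higher levels. Mitf, the master regulator of melanocytes, ran from 8.07 CPM in SCC32 to 14.2 CPM in SCC37, Pax3 from 67.1 to 153 CPM, Tfap2a from 21.9 to 50.5 CPM and Gpnmb from 356 to 1497 CPM. The lines are called by their names here.

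Of 23 genes of a neural crest-like and invasive state, 16 were tested and 5 stayed under 1 CPM in every sample. SCC35 had 8 higher (50%) and 3 lower (18.8%), beside 23.5% and 19.4% of all genes, and SCC31 6 (37.5%) and 3 (18.8%), beside 27% and 27.3%. SCC32 had 4 (25%) and 3 (18.8%), near its shares of 21.6% and 15.9%. SCC37 had 2 higher (12.5%), near 10.2%, and 4 lower (25%), beside 6.81%. SCC40 had 4 higher (25%), under its share of 33.8%, and 6 lower (37.5%), beside 25.2%. Axl, a receptor kinase of the invasive melanoma state, lay between 157 and 304 CPM in all samples. Vim, the mesenchymal filament protein, had 10450 and 6073 CPM in the replicates of SCC35 against a lowest, median and highest value of 2722, 3142 and 4764 CPM in the other 8 samples. The SCC35 samples lay above all others (log2 fold change 1.29 ± 0.14 SE, adjusted p = 1.79e-05), and the fold was 0.75 with a ratio of 8 in replicate 1. Here and below such values come from edgeR's quasi-likelihood test of 1 line against the mean of the other 4 lines, with Benjamini-Hochberg adjustment over 11849 genes and a threshold of 0.05.

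Markers of other cell types were low. The immune markers other than Ccl5 and Cd68, which the day 0 cells held themselves, summed to 7.87 to 38.7 CPM in SCC31, SCC35, SCC37 and SCC40 and to 160 and 124 CPM in SCC32, against 1549 to 4716 CPM in the other cells of the libraries. Fibroblast markers summed to 157 and 120 CPM in SCC32, 114 and 48.9 CPM in SCC35 and 10.9 to 28.9 CPM elsewhere. Keratinocyte markers reached at most 2.02 CPM and erythroid markers 1.93 CPM. Of 7 endothelial markers the sum rested on Plvap (503 and 535 CPM in SCC40, at most 198 CPM elsewhere), while Pecam1, which defines the type, stayed at or below 1.15 CPM.

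The lines differed in most of the genes they expressed. Of 11849 genes tested, 9664 (81.6%) differed among the 5 lines. By this count the fewest genes, 27.1%, were called between SCC35 and SCC37, and 28.3% between SCC32 and SCC37. The order of these pairs was the other way by genes called at 2-fold or more (1097 and 946) and by the median absolute log2 difference (0.35 and 0.31). SCC31 and SCC37 differed in 37.9%, SCC32 and SCC35 in 40.7%, and SCC37 and SCC40 in 46.3%. SCC40 differed from SCC32 in 50% and from SCC35 in 50.9% of genes, and SCC31 differed from SCC32 in 51.2% and from SCC35 in 51.2%. The most genes, 7295 or 61.6%, were called between SCC31 and SCC40, the 2 rejected lines. The sums differ in depth between lines, which bears on how many genes can be called.

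Interferon-stimulated genes set the lines apart in a graded order. Of 24 listed genes, all of them tested, SCC40 had 22 higher and 1 lower than the mean of the other lines (median log2 fold change 1.30), where 33.8% of all genes were higher and 25.2% lower (median 0.04). SCC32 had 16 higher and 1 lower (median 0.64), against 21.6% and 15.9% of all genes (median 0.01). SCC37 had 10 higher and 1 lower (median 0.45), against 10.2% and 6.81% of all genes (median 0.01). SCC31 had 22 lower and none higher (median -1.14), against 27.3% lower and 27% higher among all genes (median 0.04), and SCC35 had 19 lower and none higher (median -1.10), against 19.4% and 23.5% (median -0.01).

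The summed level of the list was 2298 and 2597 CPM in SCC31, 9144 and 9220 in SCC32, 2295 and 4980 in SCC35, 7789 and 8105 in SCC37, and 13690 and 14590 in SCC40. By the sum per line the rejected lines were thus the lowest (SCC31, 2399 CPM) and the highest (SCC40, 13940 CPM). SCC35 was near SCC31 (2889 CPM), and their replicates 1 were level. These totals include Gm42418, which took 21.4% and 21.2% of UMIs in SCC31 and 3.35% and 3.41% in SCC35. CPM of other genes are thus lowered more in SCC31 than in SCC35. The order of SCC31 and SCC35 without Gm42418 was not tested, so which of them is lowest is uncertain. The gap between the SCC35 replicates moves with the hashtag ratio given above. With a ratio of 8 in SCC35 replicate 1, SCC35 kept 17 lower and had 1 higher (median -0.62). The SCC37 count depended on single samples: 3 genes were higher without SCC37 replicate 2, 5 without SCC37 replicate 1, 5 or 6 without any sample of SCC31, SCC32 or SCC40, 14 without SCC35 replicate 1 and 20 without SCC35 replicate 2.

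The 3 genes of the list with the highest level in SCC40 were Bst2, Isg15 and Ifit3, and the stretch of DNA before each start site is shown because all hold the letters that interferon-activated factors are known to read. The element searched was GAAA, any 2 bases and GAAA again, on both strands, with overlapping matches counted. It was found in 10 of 18 promoters that could be matched to the 27 listed symbols (55.6%), in 291 of 9233 promoters of the tested genes (3.15%) and in 1131 of 32851 promoters in all (3.44%), each 300 bases long and taken from RefSeq on GRCm38.p6. A match describes the letters, not binding. Bst2 (chr8:71537473-71537632, minus strand) held 2 matches, Isg15 (chr4:156200819-156200978, minus strand) 3, and Ifit3 (chr19:34583369-34583528, plus strand) 2 that read on the opposite strand. Capitals mark the matches in each stretch of 160 bases, and overlapping matches run together.
Bst2: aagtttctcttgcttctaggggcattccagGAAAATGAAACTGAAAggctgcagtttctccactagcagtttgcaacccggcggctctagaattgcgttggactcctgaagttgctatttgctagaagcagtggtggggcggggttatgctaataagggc
Isg15: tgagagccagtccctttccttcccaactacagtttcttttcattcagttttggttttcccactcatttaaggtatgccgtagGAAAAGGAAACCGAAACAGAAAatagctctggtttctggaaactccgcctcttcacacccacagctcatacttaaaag
Ifit3: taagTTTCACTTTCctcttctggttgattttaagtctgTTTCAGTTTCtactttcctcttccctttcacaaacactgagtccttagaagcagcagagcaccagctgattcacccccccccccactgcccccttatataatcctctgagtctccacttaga

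Bst2, a membrane tether that holds budding virus, had 421 and 460 CPM in SCC31, 2714 and 2773 in SCC32, 711 and 1361 in SCC35, 2290 and 2494 in SCC37, and 5791 and 6148 in SCC40. SCC40 lay above all other samples (log2 fold change 2.53 ± 0.12, adjusted p = 5.45e-09) and SCC31 below all (-2.65 ± 0.17, adjusted p = 5.17e-08). Isg15, a ubiquitin-like modifier, had 2330 and 2605 CPM in SCC40 against 158 and 186 CPM in SCC31. The SCC31 samples again lay below all others (log2 fold change -3.26 ± 0.27, adjusted p = 4.96e-07) and the SCC40 samples above all (2.03 ± 0.18, adjusted p = 9.77e-07). Ifit3, which binds viral RNA complexes, had 1366 and 1440 CPM in SCC40 against a lowest, median and highest value of 115, 486 and 777 CPM in the other samples (log2 fold change 2.20 ± 0.18, adjusted p = 3.48e-07). Its lowest value belonged to SCC35 replicate 1, so that SCC31, at 199 and 239 CPM, overlapped the rest.

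Members did not all follow that order. Oasl1 was highest in SCC37 (171 and 153 CPM, adjusted p = 4.87e-06), above the 144 and 138 CPM of SCC40. Its 53.5 and 48.6 CPM in SCC32 made it the member called lower there. Ifi27 was highest in SCC32 (490 and 491 CPM), was the member called lower in SCC37 (239 and 289 CPM), and was not called in SCC40 (290.4 and 306 CPM). The SCC32 call of Oasl1 was lost without SCC32 replicate 2, and the SCC37 call of Ifi27 was lost without any single sample of SCC31, SCC32, SCC37 or SCC40. Cgas, the sensor of cytosolic DNA, had 4.36 and 3.88 CPM in SCC40 against 6.92 to 14.4 CPM in the other samples (log2 fold change -0.92 ± 0.18, adjusted p = 0.000635) and was the member called lower in SCC40. That call was lost when all sums were thinned to the depth of the smallest. Tmem173, which encodes STING, the partner of Cgas, was higher in SCC40 (48.8 and 47.6 CPM) than in any other sample (12.4 to 37.4 CPM).

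**Figure D2:**
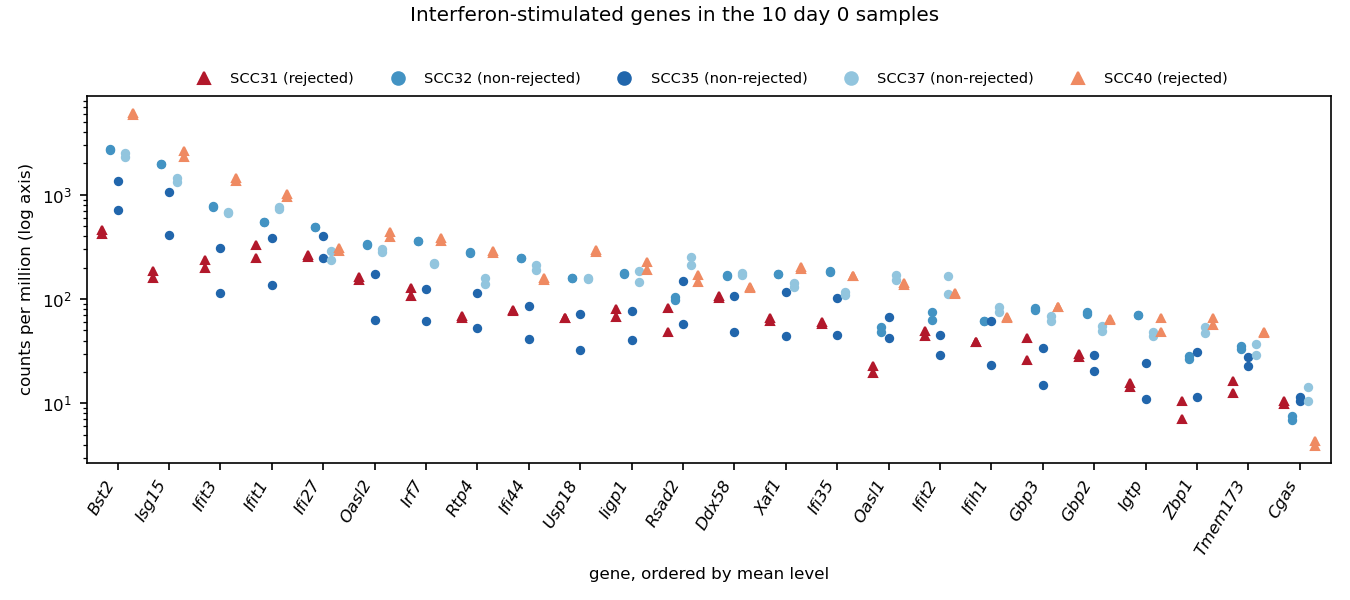
CPM (log axis) of the 24 interferon-stimulated genes, ordered by mean level, in each of the 10 day 0 samples, with 1 point per sample, triangles for the rejected lines and circles for the non-rejected lines. The triangles of SCC40 lie highest and those of SCC31 lowest for Bst2 and Isg15, and SCC40 lies lowest for Cgas.

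MHC class I presentation followed a similar split. Of 19 listed genes, SCC32 had 14 higher and none lower (median 0.49), where 21.6% of all genes were higher and 15.9% lower, and SCC40 had 12 higher and 2 lower (0.85), where these shares were 33.8% and 25.2%. SCC37 had 7 higher and none lower (0.33), against 10.2% and 6.81% of all genes. SCC31 had 1 higher and 14 lower (-0.59), against 27% and 27.3%, and SCC35 3 higher and 16 lower (-0.85), against 23.5% and 19.4%. With a ratio of 8 in SCC35 replicate 1, the SCC35 count was 3 higher and 13 lower (-0.39), and without SCC32 replicate 1 the SCC32 count was 9 higher. The SCC37 count was 13 higher without SCC35 replicate 2, 4 without SCC32 replicate 2, and 3 and 2 without its own replicates 1 and 2. SCC40 had 4 lower without SCC35 replicate 1. H2-K1, a heavy chain of class I, had 750.5 and 838 CPM in SCC31, 1320 and 1211 in SCC32, 525 and 981 in SCC35, 1428 and 1527 in SCC37, and 1980 and 2013 in SCC40. SCC40 lay above all others (log2 fold change 1.30 ± 0.13, adjusted p = 1.9e-06). SCC31 (-0.84 ± 0.15, adjusted p = 0.000383) and SCC35 (-0.85 ± 0.15, adjusted p = 0.000577) were called lower and overlapped each other, the latter at -0.39 with a ratio of 8 in its replicate 1. H2-D1, another heavy chain, had 2677 and 2792 CPM in SCC40 against 775, 1283 and 1718 CPM as the lowest, median and highest of the other samples (1.48 ± 0.09, adjusted p = 4.49e-08). Reads of H2-K1, H2-D1 and the H2-T and H2-Q genes can be shared between near-identical relatives, so their split is uncertain.

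The peptide-loading steps did not move as a block. The 2 members lower in SCC40 were Calr (104 and 124 CPM against 199 to 391 CPM elsewhere, log2 fold change -1.06 ± 0.09, adjusted p = 5.57e-07) and Canx (248.7 and 250.6 CPM against 343.5 to 513.8 CPM), chaperones of the endoplasmic reticulum. Tap1 was not called in SCC40 (63.1 and 67.4 CPM) and was highest in SCC37 (91.9 and 93.3 CPM). The immunoproteasome subunit Psmb8 was highest in SCC40 (348 and 358 CPM) and SCC32 (316 and 306 CPM) and lay at 71.7 to 190 CPM in the other lines. The 3 members higher in SCC35 were Calr, Canx and Pdia3, which fold many secreted proteins. Nlrc5, the transactivator of class I genes, was the member higher in SCC31 (37.7 and 45.9 CPM), a call lost without either SCC31 sample or SCC37 replicate 2. Canx lost its SCC35 call without SCC35 replicate 1.

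Genes of interferon-gamma signalling were listed separately. Of 12 genes, SCC40 had 8 higher and none lower (median 0.57), beside 33.8% and 25.2% of all genes, and SCC32 6 higher and none lower (0.37), beside 21.6% and 15.9%. SCC35 had 1 higher and 8 lower (-0.52), beside 23.5% and 19.4%, and 5 lower without SCC35 replicate 1. SCC31 had 2 in each direction, 16.7% of the list and less than its all-gene shares of 27% and 27.3%, and SCC37 had 1 lower, 8.33% beside 6.81%. Without SCC35 replicate 2 these counts were 2 higher and 5 lower in SCC31 and 2 higher and 4 lower in SCC37. Without SCC35 replicate 1 or SCC40 replicate 2, SCC31 had 4 lower. Cd274, which encodes PD-L1, ran from 3.66 to 9.94 CPM over all samples and was called in no line.

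MHC class II genes were called higher in SCC32 (6 of 7 tested, none lower, median 2.31), beside 21.6% and 15.9% of all genes. SCC40 had 4 lower (57.1%), beside 25.2%, and SCC31 1 lower (14.3%), beside 27.3%, with none higher. SCC37 had 1 higher (14.3%), beside 10.2%, and none lower, and SCC35 had none called. Cd74, the class II chaperone, had 68.47 and 31.98 CPM in SCC32 against 5.24 to 13.5 CPM in the other samples (log2 fold change 2.31 ± 0.25, adjusted p = 1.71e-05). RNA of the other cells of that library, at a share read from immune markers, would give 95.2 and 73.9 CPM, more than was seen. When that share was subtracted, an alternative chosen after seeing the data, 2 genes of the list remained tested and 1 was higher. C1qb, a macrophage gene, had 12.5 and 10.2 CPM where 14.6 and 11.3 were computed. C1qb is among the immune markers from which the share was read, so its closeness to the computed level is no separate check. Both genes thus lay below the level computed for RNA of other cells. Among SCC32 cells, 11.3% and 8.59% held 2 or more UMIs of immune markers other than Ccl5 and Cd68, against 0 to 3.57% elsewhere. Single cells of the SCC32 samples held up to 112 and 75 Cd74 UMIs. Whether such cells were wrongly assigned was not tested.

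SCC31 had a high level of a contractile gene and a very low level of Mgp. Acta2, smooth muscle actin (chr19:34241090-34255590), had 317 and 338 CPM in SCC31 against a lowest, median and highest value of 1.89, 7.79 and 36.9 CPM in the others. SCC31 lay far above (log2 fold change 4.91 ± 0.15, adjusted p = 1.55e-10), and an Acta2 UMI was found in 23.7% and 25.6% of its cells, against at most 4.36% elsewhere, although SCC31 cells were the shallowest. Gpc4, a heparan sulfate proteoglycan, had 84.9 and 97.7 CPM against 0.15 to 16.6 CPM (4.40 ± 0.22, adjusted p = 5.81e-09). Rmrp, the RNA part of a processing enzyme, had 21.2 and 25.6 CPM against 0.36 to 2.04 CPM (4.84 ± 0.30, adjusted p = 3.24e-08). The other largest rises in SCC31 were Y-linked and are given below.

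Mgp, an inhibitor of matrix calcification, had 1.68 and 1.97 CPM in SCC31 against 25.9, 269 and 1026 CPM as the lowest, median and highest of the others. SCC31 lay below all other samples (log2 fold change -6.73 ± 0.50, adjusted p = 1.97e-07). Lgals7, a galectin of squamous epithelia, had 0 and 0.66 CPM in SCC31 against 5.23 to 147 CPM, and Rgcc, a cell cycle regulator, 0 and 0.66 CPM against 2.93 to 70.1 CPM. Both calls (adjusted p = 0.00248 and 0.000935, edgeR) were lost without SCC31 replicate 1. H19 had no count in SCC31, and 0.60 to 2.40 CPM in the samples of SCC32 and SCC40, which were low as well. Col6a3 had 0.34 and 0 CPM in SCC31 against 2.72 to 342 CPM, and both calls (adjusted p = 0.0266 and 0.0269, edgeR) were lost without either SCC31 sample. Zeb2, a regulator of the melanocytic and mesenchymal balance, was higher in SCC31 (172 and 182 CPM against 67.8 to 104 CPM, log2 fold change 0.996 ± 0.09, adjusted p = 1.18e-06). Of 12 other melanoma suppressor genes, 8 were higher (66.7%) and 2 lower (16.7%) in SCC31 (median 0.54), beside 27% and 27.3% of all genes, and 5 were higher without SCC31 replicate 2.

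SCC32 was distinguished by collagen. Col1a1, the main chain of type I collagen (chr11:94936224-94953042), had 639 and 646 CPM in SCC32 against a lowest, median and highest value of 4.44, 24.2 and 41.0 CPM in the other samples. The groups lay far apart (log2 fold change 5.11 ± 0.09, adjusted p = 1.85e-12). A Col1a1 UMI was found in 89.0% and 90.4% of SCC32 cells, against 3.26% to 11.5% in the other lines, or in 63.6% and 63.2% against 0.96% to 6.33% when each cell was thinned to 2000 UMIs. RNA of the other cells of the library would give 30.2 and 23.5 CPM. Of 23 matrix genes, SCC32 had 17 higher and 1 lower (median 1.38), beside 21.6% and 15.9% of all genes. Col5a2, a collagen of the same fibres, had 318 and 323 CPM against 21.8 to 160 CPM (2.12 ± 0.08, adjusted p = 3.1e-09). The fibroblast markers that sum high in SCC32 include Col3a1 (133 and 98.3 CPM), a member of the matrix list too.

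Slc24a3, a calcium exchanger, had 32.5 and 38.1 CPM against at most 1.31 CPM in any other sample (log2 fold change 7.94 ± 0.26, adjusted p = 3.1e-09). Itgbl1, an integrin-like secreted protein, had 21.7 and 25.1 CPM against at most 1.01 CPM, Lmcd1 38.06 and 39.96 CPM against at most 8.14 CPM, and Rcn3, a chaperone of collagen production, 26.1 and 22.7 CPM against at most 5.44 CPM. Spry1, which restrains receptor kinase signalling, had 246 and 226 CPM against 32.4 to 81.9 CPM (2.02 ± 0.10, adjusted p = 2.09e-08). Nt5e, the enzyme CD73 that makes adenosine, had 27.1 and 30.9 CPM against 0.55 to 7.46 CPM (3.93 ± 0.17, adjusted p = 9.79e-09). Among the genes lower in SCC32, Gfra1, a receptor of GDNF, had 1.26 and 1.43 CPM against 11.95 to 67.7 CPM (-3.99 ± 0.18, adjusted p = 1.56e-08). Kcnk3, Lipg, Nrcam and Prl2c2 were the other falls named by rule, with log2 fold changes of -5.70 to -2.80. Prl2c2 has near-identical copies and its value is uncertain.

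SCC35 held a gene that was nearly absent from the other lines. Akr1c18, a steroid dehydrogenase (chr13:4132615-4150654), had 279 and 62.4 CPM in SCC35, or 1541 counts, against 5 counts in the other 8 samples together. It was found in 32.8% and 11.6% of SCC35 cells and in at most 0.43% elsewhere. Hspb7, a small heat shock protein, had 125 and 63.8 CPM against at most 4.74 CPM (log2 fold change 8.08 ± 0.33, adjusted p = 4.58e-08), and Atp2a3, a calcium pump, 169 and 35.3 CPM against at most 1.26 CPM (7.87 ± 0.52, adjusted p = 5.22e-07). Sprr1a, an epidermal envelope protein, had 21.8 and 33.3 CPM against at most 2.30 CPM, and Dynap 41.2 and 4.75 CPM against at most 0.63 CPM. The replicates of SCC35 differed by several-fold for Akr1c18, Atp2a3 and Dynap, and both still lay above all other samples. With a ratio of 8 in replicate 1 the log2 fold changes of Akr1c18, Hspb7, Atp2a3, Sprr1a and Dynap were 9.83, 7.23, 6.50, 8.43 and 7.46, all still called.

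Timp1, a protease inhibitor, and Lgals3, a galectin, were also high in SCC35. Timp1 had 1224 and 660 CPM against 50.5, 168 and 286 CPM as the lowest, median and highest of the others (log2 fold change 2.69 ± 0.16, adjusted p = 2.88e-07). Lgals3 had 3103 and 2758 CPM against 422 to 1294 CPM (1.74 ± 0.10, adjusted p = 2.28e-07). Lower in SCC35 were Sparcl1, a matrix glycoprotein (21.0 and 34.6 CPM against 167 to 288 CPM, -3.15 ± 0.14, adjusted p = 3.96e-08), Pitpnc1, a lipid transfer protein (4.82 and 5.43 against 26.5 to 106 CPM), and Adamts9, a protease (5.20 and 3.39 against 9.31 to 72.1 CPM). The complement gene C1ra (13.1 and 31.2 CPM against 57.0 to 177 CPM) was lower as well. For each of these genes the SCC35 samples did not overlap the rest. In replicate 1, Timp1 had 1483 CPM in the cells of ratio 2 to 4 and 676.8 CPM in those of ratio 8 or more. With a ratio of 8 there, the log2 fold changes of Timp1, Lgals3, Sparcl1, Pitpnc1, Adamts9 and C1ra were 2.09, 1.57, -2.70, -2.78, -2.62 and -1.60, all still called.

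**Figure D3:**
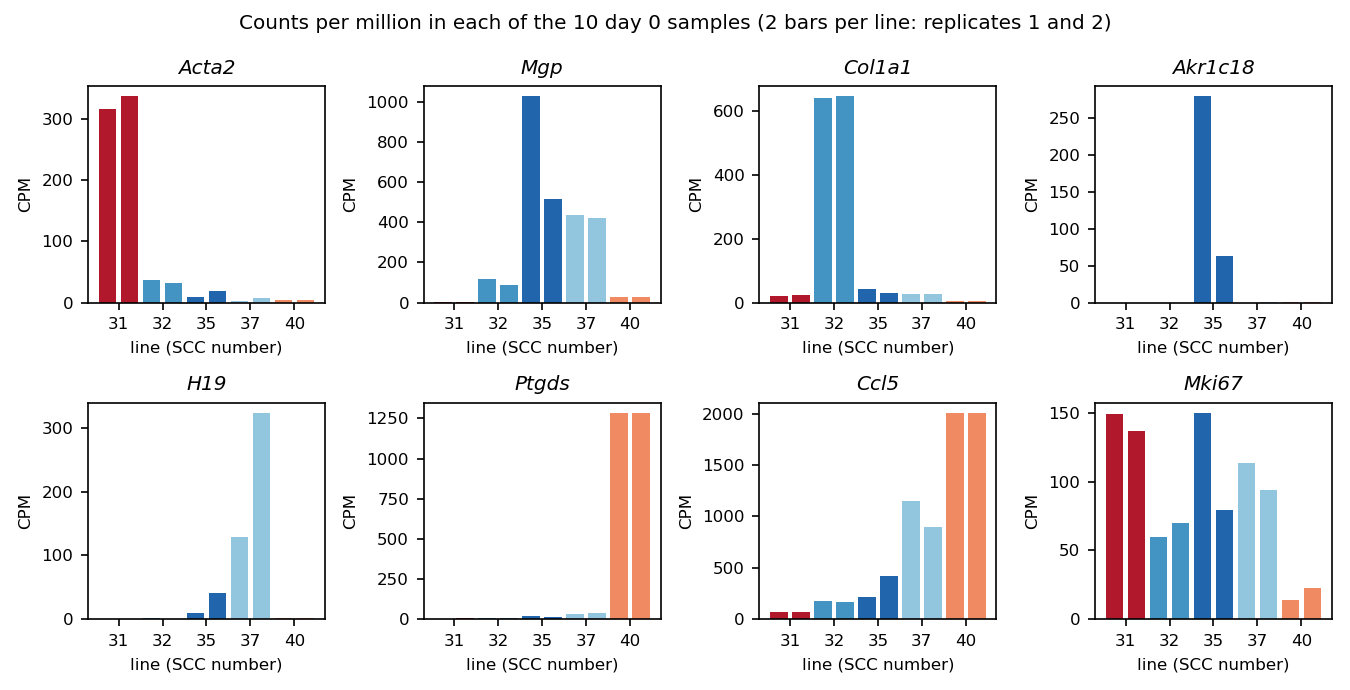
CPM of 8 genes in each of the 10 day 0 samples, 1 bar per sample (replicates 1 and 2 side by side) and axes from 0. Acta2 is high in SCC31, Col1a1 in SCC32, Akr1c18 in SCC35, H19 in SCC37 and Ptgds in SCC40, Mgp is nearly absent from SCC31, and Mki67 is lowest in SCC40.

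SCC37 was called for the fewest genes, and its leading genes came from few cells. Myod1, the master regulator of skeletal muscle (chr7:46376474-46379099), had 19.9 and 21.1 CPM in SCC37 against at most 2.04 CPM in any other sample (log2 fold change 8.60 ± 0.49, adjusted p = 6.61e-06). Chrng, the fetal subunit of the muscle acetylcholine receptor, had 33.6 and 29.3 CPM against 0 to 19.7 CPM (6.34 ± 0.54, adjusted p = 2.22e-05), and Tnnt3, a troponin of fast muscle, 32.7 and 43.1 CPM against 0 to 20.4 CPM (5.66 ± 0.43, adjusted p = 6.08e-06). H19, an imprinted RNA, had 129 and 324 CPM against 0 to 40.7 CPM (7.79 ± 0.47, adjusted p = 2.56e-06), and Igfbp5 66.3 and 21.5 CPM against 0 to 4.43 CPM (7.17 ± 0.57, adjusted p = 1.32e-05). The highest of the other values of Myod1, Chrng, H19 and Tnnt3 belonged to SCC35 replicate 2.

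Chrng and H19 were found in over 50% of the cells with a Myod1 UMI, and Tnnt3 and Igfbp5 in fewer. A Myod1 UMI was found in 15 of 235 cells (6.38%) of SCC37 replicate 1 and in 28 of 469 (5.97%) of replicate 2, in 1 and 2 cells of the SCC35 samples, and in none of SCC31, SCC32 and SCC40. The 0 of 1165 cells in SCC40 replicate 1 allow a share of cells with a detected UMI of up to 0.26% at 3 cells, for counting error only. Cells whose Myod1 RNA was missed are not limited by it. In SCC37 replicate 1, Chrng was found in 8 of the 15 Myod1 cells (53.3%) and in 1.36% of the other 220, and H19 in 10 (66.7%) and in 4.55%. In replicate 2, Chrng was found in 15 of 28 (53.6%) and in 0.91% of the other 441 cells, H19 in 17 (60.7%) and in 4.54%. Tnnt3 was found in 2 of the 15 Myod1 cells of replicate 1 (13.3%) and 0.91% of the others, and in 11 of the 28 of replicate 2 (39.3%) and 1.13% of the others. Igfbp5 was found in 2 of 15 (13.3%) and 1.36%, and in 7 of 28 (25%) and 1.81%. Myod1 cells had more UMIs at the median (10610 against 7506 and 11920 against 8692). All of these genes were chosen because they were high in the SCC37 sums, so that their sharing of cells is a description.

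Among the genes lower in SCC37, Fgfr1, a receptor of fibroblast growth factors, had 7.10 and 3.77 CPM against 13.9, 74.1 and 101 CPM as the lowest, median and highest of the others (log2 fold change -3.70 ± 0.36, adjusted p = 3.51e-05). Col1a2, the partner chain of Col1a1, had 33.6 and 16.7 CPM against 76.1 to 419 CPM (-3.15 ± 0.23, adjusted p = 5.15e-06). Adamtsl3, Loxl1, a collagen crosslinking enzyme, and Crabp2, a retinoic acid carrier, were the other falls named by rule (-4.30 to -2.38). Of 23 matrix genes, 9 were lower and 1 higher in SCC37 (median -0.45), beside 6.81% and 10.2% of all genes, and 2 were lower without SCC37 replicate 2 and 4 lower without replicate 1. Of 11 targets of the oxidative stress factor NRF2, 6 were higher and none lower (median 0.39), beside 10.2% and 6.81% of all genes, among them Slc7a11, the cystine importer, with 56.4 and 43.3 CPM against 4.24 to 47.5 CPM (1.40 ± 0.21, adjusted p = 0.000742), where 1 sample of SCC35 overlapped. Without SCC32 replicate 1 or SCC37 replicate 2 the count was 3.

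SCC40 was the line with the most genes called at full depth (6988, against 6435 for SCC31). With all sums thinned to the depth of the smallest, SCC31 had more (5157 against 4255). Ptgds, prostaglandin D synthase (chr2:25466709-25470046), had 1284 and 1285 CPM in SCC40 against a lowest, median and highest value of 2.36, 9.76 and 38.1 CPM in the others (log2 fold change 7.15 ± 0.11, adjusted p = 2.62e-13). It was found in 91.5% and 90.4% of SCC40 cells and in at most 15.6% elsewhere, or in 73.4% and 74.8% against at most 5.96% at 2000 UMIs. Kcnh1, a potassium channel, had 23.4 and 27.3 CPM, or 470 counts, against 4 counts in the other 8 samples together. Prkcb, a protein kinase C, had 31.6 and 30.3 CPM against at most 8.52 CPM, Mmp3, a matrix protease, 41.1 and 49.8 CPM against at most 6.92 CPM, and Tgtp1, an interferon-inducible GTPase, 50.5 and 51.3 CPM against at most 10.7 CPM. Tgtp1 has a near-identical copy and its value is uncertain. All 5 genes lay above every other sample.

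Among the falls in SCC40 was Nrg1, a ligand of ERBB receptors, with 0.22 and 1.11 CPM against 15.9, 26.7 and 33.0 CPM as the lowest, median and highest of the others (log2 fold change -5.34 ± 0.45, adjusted p = 4.92e-07). Gpc4, Tnn (a tenascin) and Ptgfrn were other falls named by rule (-5.53 to -4.24). Zeb1, a driver of the mesenchymal state, had 1.31 and 2.22 CPM in SCC40 against 18.9 to 29.1 CPM (-3.49 ± 0.22, adjusted p = 4.69e-08). Nes, the neural progenitor filament nestin, had 12.3 and 9.97 CPM in SCC40 and 17.8 and 16.7 CPM in SCC32 against 87.7 to 132 CPM in the other lines. Both lines were called lower (-2.26 ± 0.12 and -1.94 ± 0.11, adjusted p = 9.23e-09 and 5.59e-08).

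Secreted immune mediators followed no single order. Of 25 genes tested, SCC31 had 13 lower and 3 higher (median -1.83), beside 27.3% and 27% of all genes, and 7 lower without SCC31 replicate 1. SCC32 had 14 higher and 4 lower (0.63), beside 21.6% and 15.9%, and 9 higher when free RNA was subtracted with immune markers other than Ccl5 and Cd68. SCC40 had 11 higher (44%) and 8 lower (32%), near its all-gene shares of 33.8% and 25.2%, and 8 in each direction with library totals as the scale. SCC35 had 9 higher (36%) and 5 lower (20%), beside 23.5% and 19.4%, and SCC37 4 higher (16%) and 2 lower (8%), near 10.2% and 6.81%. The SCC37 counts became 7 and 4 without SCC35 replicate 1. Ccl5, a chemokine of T cells, had 67.7 and 72.8 CPM in SCC31, 181 and 165 in SCC32, 218 and 419 in SCC35, 1154 and 899 in SCC37, and 2006 and 2009 in SCC40. SCC40 lay above all others (log2 fold change 3.35 ± 0.13, adjusted p = 9.94e-10) and SCC31 below all (-3.18 ± 0.21, adjusted p = 4.95e-08). Ccl5 was found in 57.8% and 58.8% of SCC40 cells, 59.2% and 56.7% of SCC37 cells and 6.12% and 7.68% of SCC31 cells, and RNA of other cells would give at most 9.36 CPM in SCC40.

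Ccl2, which draws monocytes, had 247 and 280 CPM in SCC40 and 18.9 and 19.7 CPM in SCC31, with the other lines between (74.7 to 171 CPM). SCC40 was higher (log2 fold change 2.30 ± 0.15, adjusted p = 5.05e-08) and SCC31 lower (-2.89 ± 0.25, adjusted p = 8.41e-07). Spp1, osteopontin, had 20630 and 17610 CPM in SCC40 and 2889 and 3239 CPM in SCC31, against 6782 to 8888 CPM in the other lines (1.94 ± 0.07, adjusted p = 6.08e-10, and -1.84 ± 0.09, adjusted p = 4.6e-09). Both genes thus had their extremes in the rejected lines, at opposite ends. Csf1, the macrophage growth factor, ran the other way in SCC40 (124 and 117 CPM against 211 to 412 CPM, -1.16 ± 0.16, adjusted p = 3.22e-05). Il6, an inflammatory cytokine, had 21.6 and 15.1 CPM in SCC32 against 0 to 6.11 CPM (4.18 ± 0.29, adjusted p = 3.58e-07), and Ptgs2, the inducible cyclooxygenase, 192 and 48.2 CPM in SCC35 against 2.40 to 19.9 CPM (3.97 ± 0.34, adjusted p = 2.85e-06). In SCC35 replicate 1, Ptgs2 had 255 CPM in the cells of ratio 2 to 4 and 82.5 CPM in those of ratio 8 or more, and its log2 fold change was 2.83 with a ratio of 8 there.

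Proliferation genes were lowest in SCC40 and, summed per line, highest in SCC35 (1884 CPM). SCC35 replicate 2 (1454 CPM) lay below SCC37 replicate 1 (1523 CPM). Of 24 cell cycle genes, SCC40 had 23 lower and none higher (median -1.52), beside 25.2% and 33.8% of all genes, and SCC35 24 higher (1.04), beside 23.5%, 17 with a ratio of 8 in SCC35 replicate 1 and 14 without that sample. SCC31 and SCC37 had 7 higher each (29.2%), which is near the all-gene share of 27% in SCC31 and stands beside 10.2% in SCC37, with 2 and 0 lower. SCC32 had 2 higher and 5 lower (20.8%), near its share of 15.9%. These smaller counts rested on single samples: SCC37 had 1 and 3 higher without its replicates 1 and 2 and 13 without SCC35 replicate 1, SCC31 had 4 higher without its replicate 1, and SCC32 had 10 lower without SCC35 replicate 2 and 2 and 1 without its own replicates. Mki67, the proliferation marker Ki-67, had 149 and 137 CPM in SCC31, 59.9 and 70.1 in SCC32, 150 and 79.4 in SCC35, 114 and 94.1 in SCC37, and 13.7 and 22.7 in SCC40. SCC40 lay below all others (log2 fold change -2.27 ± 0.24, adjusted p = 3.7e-06), and the higher call of SCC35 (0.94 ± 0.19, adjusted p = 0.00188, and 0.52 with a ratio of 8 in replicate 1) was lost without SCC35 replicate 1. Top2a, the DNA topoisomerase of dividing cells, had 45.3 and 62.9 CPM in SCC40 against 130 to 293 CPM (-1.61 ± 0.18, adjusted p = 5.16e-06). Cdt1, which licenses replication origins, was the member not called in SCC40 (24.0 and 24.7 CPM).

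Hypoxia and glycolysis genes were higher in SCC35 (11 of 14 higher, 1 lower, median 0.89, beside 23.5% and 19.4% of all genes, and 10 higher and none lower with a ratio of 8 in replicate 1). SCC31 had 9 lower and 3 higher (-1.07), beside 27.3% and 27%, SCC37 7 lower and 2 higher (-0.26), beside 6.81% and 10.2%, and SCC32 6 higher and 3 lower (0.13), beside 21.6% and 15.9%. SCC40 had 5 higher (35.7%) and 4 lower (28.6%), near its all-gene shares of 33.8% and 25.2% (median 0.23), which turned to 2 higher and 5 lower (-0.11) with library totals as the scale. The SCC40 count was 9 higher without SCC35 replicate 1 and 3 without SCC40 replicate 1. The SCC37 count was 1 lower without its replicate 1, 3 without its replicate 2, and 4 without SCC31 replicate 1, SCC32 replicate 1 or either SCC40 sample. Pgk1, a glycolytic kinase, had 854 and 766 CPM in SCC35 against 205, 304 and 500 CPM as the lowest, median and highest of the others (log2 fold change 1.43 ± 0.09, adjusted p = 2.7e-07, and 1.18 with a ratio of 8 in replicate 1). Ldha, which makes lactate, had 571 and 521 CPM in SCC31 against 735 to 2075 CPM (-1.25 ± 0.09, adjusted p = 1.3e-07). The low values of SCC31 stand beside its RNA make-up given above, and the part of that make-up in them was not tested.

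Stress and immediate early genes, which respond within minutes to handling, had 11 of 18 members higher and 3 lower in SCC40 (median 0.67), and 6 higher without SCC40 replicate 1, close to the 33.8% of all genes. The summed level of all 20 genes listed was 5484 and 3837 CPM in the SCC40 samples and 5018 CPM by line, below SCC35 (5430 CPM) and SCC32 (5040 CPM). SCC35 had 8 higher and none lower (0.30), beside 23.5% and 19.4%, with 5 lower at a ratio of 8 in its replicate 1, and SCC32 6 and 3, beside 21.6% and 15.9%. SCC37 had 3 and 7 (-0.38), beside 10.2% and 6.81%, with 2 lower without its replicate 2, and SCC31 1 and 13 (-0.69), beside 27% and 27.3%. Fos had 644 and 250 CPM in SCC40, 698 and 546 in SCC32, 318 and 170 in SCC35, 177 and 177 in SCC31, and 85.7 and 85.8 in SCC37. The lower call of SCC37 (log2 fold change -2.08 ± 0.35, adjusted p = 0.00156) was lost without SCC37 replicate 2. The replicates of SCC40 lay far apart and overlapped those of SCC35.

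The Cdkn2a locus was silent in all lines at this depth. Cdkn2a (chr4:89274471-89294653), which encodes the p16 and p19 tumour suppressors, had 1 count each in SCC32 and SCC40 and none in the others, and Cdkn2b (chr4:89306299-89311039) 1 count each in SCC32 and SCC35. Mtap, the next gene on the chromosome (chr4:89137122-89181081), had 56.29, 60.02, 92.6, 66.73 and 75.01 CPM in SCC31, SCC32, SCC35, SCC37 and SCC40. RNA counts do not show whether the locus is deleted, mutated or not transcribed.

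Y-linked genes split the lines. The 4 genes Ddx3y, Eif2s3y, Kdm5d and Uty summed to 114.5 and 89.8 CPM in the SCC31 samples and 31.98 and 31 CPM in those of SCC32, against 0.19 and 1.36 in SCC35, 0 and 0 in SCC37, and 0.07 and 0 in SCC40. A Y-linked UMI was found in 24.2% and 21.8% of SCC31 cells and in 14.4% and 15.7% of SCC32 cells, although SCC32 cells were deeper. At 2000 UMIs a cell the shares were 20.2% and 14.7% in SCC31 and 5.46% and 5.28% in SCC32. In SCC32 replicate 1, 76 cells held 2 or more Y-linked UMIs and 59 held 1, against 71 and 178 in SCC31 replicate 1. Whether SCC32 cells are mixed in this was not tested. Xist, transcribed from an inactive X chromosome, reached at most 6.40 CPM, in SCC32 replicate 1, where RNA of other cells would give 3.93 CPM. Of the 469 cells of SCC37 replicate 2 none had a Y-linked UMI, which allows a share of cells with a detected UMI of up to 0.64% at 3 cells. Most SCC31 cells showed none either, so cells with undetected Y-linked RNA are not limited by it.

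Whole chromosomes differed between lines in RNA level. For 8419 genes of at least 10 CPM on average, the median log2 fold change of each line was taken per chromosome, relative to the median over all those genes. Of 100 medians, 9 lay beyond 0.2 in size, and the others ran from -0.19 to 0.18. SCC31 had -0.37 on chromosome 1, 0.31 on chromosome 6 and 0.23 on chromosome 8, and SCC32 had -0.35 on chromosome 6 and 0.43 on each of chromosomes 12 and 16. SCC35 had -0.32 on chromosome 6, SCC40 had -0.42 on chromosome 3 and 0.29 on chromosome 6, and SCC37 had none by whole chromosome. Chromosome 6 thus lay beyond 0.2 in 4 lines, higher in both rejected lines and lower in SCC32 and SCC35. In SCC37, a non-rejected line, it was at 0.13, with 21.1% of its genes called higher and 4.67% lower. Each line is set against the other 4, so low values in some lines raise those of the rest.

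Most of these shifts ran along the whole chromosome. In 4 blocks of genes from start to end, chromosome 12 of SCC32 gave 0.43, 0.37, 0.55 and 0.41, and its chromosome 16 gave 0.43, 0.39, 0.37 and 0.44. Chromosome 3 of SCC40 gave -0.40, -0.50, -0.45 and -0.29, and chromosome 1 of SCC31 gave -0.24, -0.48, -0.30 and -0.47. Chromosome 8 of SCC31 was uneven, with 0.28, 0.003, 0.13 and 0.30. Chromosome 19 of SCC37, at -0.19 as a whole, gave -0.43, -0.44, 0.14 and 0.20, so a shift in part of a chromosome can be hidden in its median. Copy number was not measured here.

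**Figure D4:**
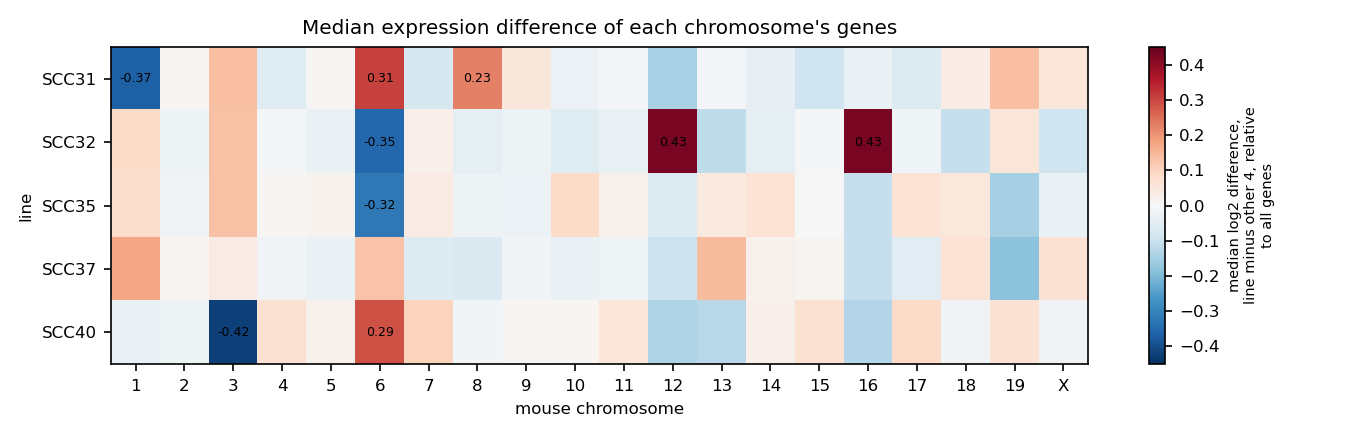
Median log2 fold change of each line (rows) against the other 4 lines for the genes of each chromosome (columns), relative to the median of all genes, with the value written where it lies beyond 0.2 in size. The 9 written values fall on chromosomes 1, 3, 6, 8, 12 and 16.

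No gene passed the threshold between rejected and non-rejected lines. With counts summed per line, 2 rejected against 3 non-rejected lines, 0 of 11637 tested genes (0%) passed the threshold in edgeR's quasi-likelihood test. At an unadjusted p under 0.05 there were 367 genes (127 higher and 240 lower in rejected lines), and DESeq2 called 38 (4 higher, 34 lower). In 498 genes (4.28%) both rejected lines lay above all non-rejected lines in CPM, and in 1281 (11%) both lay below. With TMM-scaled CPM these were 884 and 918 genes, so that split moved with the scale. SCC31 and SCC40 had the most genes called of any pair, as given above.

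Crabp1, a carrier of retinoic acid, had the smallest adjusted p-value. It had 0 and 0.66 CPM in SCC31 and 0.58 and 0.18 CPM in SCC40, against 28.4 and 19.3 in SCC32, 37.2 and 4.75 in SCC35, and 35.04 and 14.64 in SCC37. The rejected samples lay below all others (log2 fold change of line sums -5.77 ± 0.54, adjusted p = 0.103 by edgeR), and the call was made (adjusted p = 0.0396) with library totals as the scale. Ablim1, an actin-binding protein, had 0.67 CPM in SCC31 and 0.10 CPM in SCC40 by line sum, against 23.8, 28.5 and 19.7 CPM in SCC32, SCC35 and SCC37 (-6.42 ± 0.69, adjusted p = 0.148), and was called with strict cell filters (adjusted p = 0.0498). The remaining 8 genes of this kind named by rule had adjusted p-values of 0.861 (Klhl30) and 0.999 (edgeR).

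Among those 8 were a lipid carrier, a morphogen and a protease inhibitor. Fabp5, a fatty acid carrier, had 23.6 and 16.6 CPM in SCC31 and SCC40 against 107, 180 and 76.7 CPM in SCC32, SCC35 and SCC37. Timp3, an inhibitor of matrix proteases, had 2.23 and 4.70 CPM against 77.3, 77.0 and 19.7 CPM, and Bmp4, a growth factor of the BMP family, 12.5 and 4.90 CPM against 37.3, 33.5 and 38.2 CPM. Mxra8, a matrix-linked membrane protein, had 4.45 and 1.62 CPM against 79.2, 69.2 and 13.8 CPM, Klhl30 19.4 and 11.8 CPM against 61.1 to 64.4 CPM, and Serpinb6b 4.67 and 3.23 CPM against 15.4 to 37.1 CPM. Ptp4a3, a phosphatase (11.1 and 5.37 against 23.4 to 39.8 CPM), and Ddah1 (14.5 and 3.03 against 40.3 to 62.9 CPM) made up the rest.

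Gpm6b and Loxl1 led the genes that were higher in both rejected lines. Loxl1 had 28.3 and 41.8 CPM in SCC31 and SCC40 against 6.83, 1.65 and 1.02 CPM in SCC32, SCC35 and SCC37 (log2 fold change 3.49 ± 0.74, adjusted p = 0.999 by edgeR). Gpm6b, a membrane glycoprotein of neural cells, had 77.9 and 44.3 CPM against 24.5, 14.6 and 20.3 CPM (1.67 ± 0.34, adjusted p = 0.999). Zc3h8 had 44.7 and 64.7 CPM against 10.3 to 22.9 CPM, and Repin1 30.5 and 21.7 CPM against 7.80 to 11.8 CPM. Diaph2, Ltbp4, Dnm1, Xpc, Tmem150a and Tmem87b had log2 fold changes of 1.005 to 1.355 with an adjusted p of 0.999. Without SCC32, Acta1 and Myl1, muscle genes, were the genes called, both lower in the rejected lines, and leaving out any other line gave none.

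**Figure D5:**
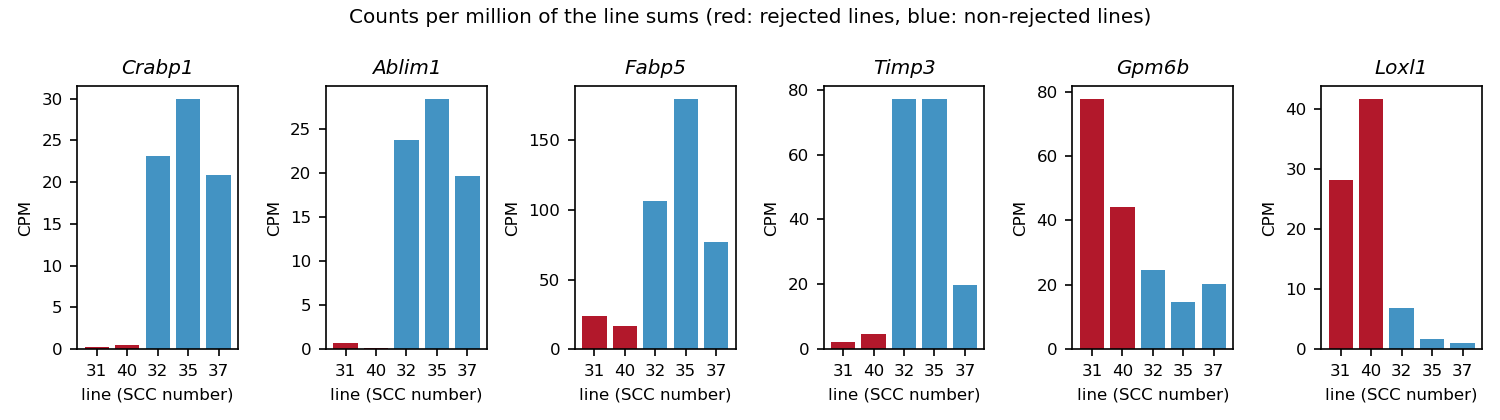
CPM of 6 genes in the counts summed per line, 1 bar per line from 0, with the 2 rejected lines in red and the 3 non-rejected lines in blue. Crabp1, Ablim1, Fabp5 and Timp3 are lower and Gpm6b and Loxl1 higher in both rejected lines, and none passes the adjusted threshold.

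The gene groups gave a similar picture for the outcome. None of the 24 interferon-stimulated genes kept rejected and non-rejected lines apart in either direction. Of 19 MHC class I genes, 3 (15.8%, near the 11% of all genes) were lower in both rejected lines and none higher. Of 24 cell cycle genes, 5 (20.8%) were lower and none higher. Of 22 matrix genes 7 were lower (31.8%) and none higher, and of 26 secreted mediators 5 (19.2%) were lower and 1 (3.85%) higher. Among markers of other cells, 6 of 10 immune cell markers, 2 of 3 fibroblast markers and 3 of 7 MHC class II genes were lower and none higher, and their part in these counts was not tested. These shares stand beside the 11% lower and 4.28% higher of all genes, and the groups were not tested against them. All are by CPM, where more of all genes lay below than above. With TMM-scaled CPM all genes split into 918 lower and 884 higher, and the groups were not counted on that scale.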

How the data were processed

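The deposited files hold raw gene and hashtag UMI counts per cell, and the submitters' processing notes name Cell Ranger 6.0.0 and mm10. Cells of 5 libraries were kept and assigned by the rules given in the report. Cells with a leading hashtag under 2 times the next were dropped, and no further doublet caller was run. Counts were summed over cells per hashed sample. The members and gene lists were chosen with earlier results of these data known.

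Each line was compared with the mean of the other 4 in 1 fit of all 10 samples (edgeR 4.0.16 in R 4.3.3, quasi-likelihood test, TMM scaling, filterByExpr, Benjamini-Hochberg threshold 0.05). Standard errors are the absolute log2 fold change divided by the square root of F. Rejected and non-rejected lines were compared by the same test on 5 line sums. The fits were tested on simulated data. DESeq2 1.42.0, other scalings, filters, cell rules, free RNA subtraction and leaving out samples were alternatives. Free RNA, left in droplets by other cells, was estimated from immune markers and subtracted with the profile of the library's other cells. Versions that set Ccl5 and Cd68 aside, a hashtag ratio of 8, and leaving out ribosomal RNA linked genes were chosen after seeing the data.

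Genes named per line were the 5 largest rises and falls among called genes whose 2 samples did not overlap the other 8, with at least 20 CPM on the higher side, leaving out mitochondrial, ribosomal protein and antigen receptor segment genes. For the outcome they were the 10 of lowest p in each direction among lines that did not overlap. Genes at 20 CPM or more in 1 line and at most 1 CPM in every other sample were also named, and genes of at most 3 counts in 1 line and at least 20 CPM in every other sample were sought and not found. Members of the gene lists were named as well. Some genes that these rules name are not reported here. Coordinates are those of mm10. Python 3.11.15, numpy 2.4.6, pandas 2.3.3, scipy 1.17.1 and matplotlib 3.10.9 were used.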

Additional observations from a re-analysis of the deposited data

How the results depend on the processing

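Of 104 named gene results, 77 kept direction and call in all of their alternatives, 19 lost the call in at least 1, and 8 reversed in 1. All 8 reversals came from subtracting free RNA with Ccl5 and Cd68 among the markers, which day 0 cells hold themselves (the share so estimated reached 91.6% in SCC40). Log2 fold changes became 0.18 for Nes (SCC32), 3.46, 3.28 and -14.8 for H2-K1 (SCC31, SCC35, SCC40), 4.11 and -6.26 for Ccl2 (SCC31, SCC40), and 1.81 and 2.51 for Mif and Ldha (SCC31). With these markers set aside none reversed.

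The numbers of genes called were 9664 among lines and 6435, 4443, 5088, 2010 and 6988 for SCC31, SCC32, SCC35, SCC37 and SCC40. DESeq2 gave 2641 for SCC32 and 1210 for SCC37. Thinning all sums to 1473567 UMIs gave 5157, 1969, 3177, 1089 and 4255 for SCC31, SCC32, SCC35, SCC37 and SCC40. A hashtag ratio of 8 gave 2759 for SCC35, leaving out cells with 2 immune UMIs 1068 for SCC37, and free RNA subtraction 3234 for SCC37. Leaving out 1 sample gave 8723 to 10511 genes among lines, 4139 to 7103 for SCC31 (lowest without its replicate 1), 2065 to 5694 for SCC32 (lowest without its replicate 2), 2200 to 5555 for SCC35 (lowest without its replicate 1), 460 to 3194 for SCC37 (lowest without its replicate 2, highest without SCC35 replicate 2) and 4588 to 7663 for SCC40 (lowest without its replicate 1). With library totals as the scale, the higher share of called genes was 60.4% for SCC31, 69.9% for SCC32, 80.6% for SCC37 and 30.9% for SCC40, against 49.7%, 57.7%, 59.9% and 57.3%, and the median of all genes moved to 0.19, 0.08, 0.12 and -0.30. Causes were not tested.

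Between outcomes, 0 genes became 38 with DESeq2, 1 with library totals, 1 with strict cells and 244 with no filter on low counts. With 1 non-rejected line left out there were 0 to 2. The mean of line effects, contrasted between outcomes in the fit of 10 samples, gave 4971. That contrast takes its spread from the samples within a line, not from differences between lines of the same outcome.

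Y-linked shares of cells thinned to 2000 UMIs were 20.2% and 14.7% in SCC31, 5.46% and 5.28% in SCC32, and 0% in SCC35 replicate 1 and SCC40 replicate 1. With strict cells they were 31.8% and 27.4% in SCC31 and 0% in SCC35 replicate 1. Thinned Xist shares were 0.874% and 0.535% in SCC32, 0.154% in SCC35 replicate 1, and 0% in SCC37 replicate 2 and in both samples of SCC40, and with a ratio of 4 they were 1.82% in SCC32 replicate 1 and 0.316% in SCC35 replicate 1.

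Replicate numbers do not pair the samples (correlations of deviations from -0.014 to 0.070). A replicate block gave 9619 genes among lines and 6429, 4488, 4910, 1981 and 6990 per line, and changed none of the 104 gene calls. Cells were shallowest in SCC31, with 2327 and 2302 median UMIs a cell, while the smallest sum was that of SCC35 replicate 2 (1473567 UMIs).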
